A study of Mus musculus with 18 samples.

Results

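Genes for 9 transcription factors that set the fate of retinal cells were followed through a comparison of mice with and without Bmal1 in microglia: Crx, Nrl, Nr2e3, Otx2, Neurod1, Thrb, Pax6, Prdm1 and Mef2d. They were taken by name, as 9 of the 55487 genes in the count table, with earlier results of these data known. RNA sequencing was done on cells sorted by flow cytometry from dissociated mouse retinas, as viable cells that carry the myeloid surface protein CD11b (the microglia, CD11b+ DAPI-) or lack it (the remaining retina, CD11b- DAPI-). The 4 groups were knockout retina (Bmal1-mg/-mg, n = 5), control retina (Bmal1f/f, n = 4), knockout microglia (Bmal1-mg/-mg, n = 5) and control microglia (Bmal1f/f, n = 4). By their names, the knockout lacks Bmal1, a core activator of the circadian clock whose gene is listed as Arntl, in microglia, and the controls carry the floxed allele. The labels used here do not give the Cre driver, the deleted part of the gene, the age of the mice or the time of day. Nothing states that replicates came from separate mice, so the spread behind each p-value is that between these samples and may be technical in part.

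Photoreceptors are specified in a cascade. Otx2 commits retinal precursors to the photoreceptor and bipolar lineages and switches on Crx, the homeobox factor that drives most photoreceptor genes and stays on in adult rods, cones and, at lower levels, bipolar cells. Nrl directs the photoreceptor precursor to become a rod, and its target Nr2e3 activates rod genes and represses cone genes, while the thyroid hormone receptor gene Thrb is needed for the medium-wavelength opsin of cones. Neurod1 maintains photoreceptors, Mef2d acts on photoreceptor genes together with Crx, Prdm1 holds photoreceptor precursors back from the bipolar fate, and Pax6 marks progenitors and then amacrine, horizontal and ganglion cells.

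The libraries held 32277156 to 47563119 counts each, and 16510 to 19713 genes with at least 1 count. Control retina replicate 2 had the fewest detected genes, 16510, against 18761 to 19713 in the knockout retina libraries. The Arntl level was 92.9 ± 18.2 CPM in knockout retina and 116 ± 17.4 CPM in control retina, and 13.6 ± 8.76 CPM in knockout microglia and 18.5 ± 7.43 CPM in control microglia (SD, n = 5 and 4). The ranges overlapped in both fractions, so total Arntl reads did not separate the genotypes (log2 change -0.35, adjusted p = 0.392 in retina and -0.44, adjusted p = 0.999 in microglia, edgeR quasi-likelihood test). Which exons were deleted is not known, and reads from a truncated transcript would still be counted. Here and below CPM is the usual depth-scaled count, with library sizes corrected by the trimmed mean of M-values (TMM). The sort was checked by markers of both fractions. The 16 microglia genes summed to 8.16 to 20.6 CPM in knockout retina and 14.1 to 30.1 CPM in control retina, and to 86076 to 93035 CPM in knockout microglia and 84656 to 94323 CPM in control microglia. The sorted microglia also held rod transcripts, at 6.82% of the retina level in knockout and 5.11% in control microglia for the sum of 31 rod genes.

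The sequences just before the start of Crx and of its downstream partner Nr2e3 are shown. Both genes stood below every control library in every knockout retina library, as did 2.69% of all genes tested. CRX and OTX2 recognise the core TAATCC, or GGATTA on the other strand, and matches are in capitals. Crx (ENSMUSG00000041578) lies on the minus strand of GRCm38 at chr7:15865947-15879968, and its window is chr7:15879969-15880205. Nr2e3 (ENSMUSG00000032292) lies on the minus strand at chr9:59942771-59960659, and its window is chr9:59950118-59950329. Both sequences are from RefSeq on GRCm38.p6, written 5′ to 3′ on the gene's strand, without the bases that GENCODE places in an exon. The Nr2e3 window lies inside the longer GENCODE gene, before a downstream RefSeq start.
Crx: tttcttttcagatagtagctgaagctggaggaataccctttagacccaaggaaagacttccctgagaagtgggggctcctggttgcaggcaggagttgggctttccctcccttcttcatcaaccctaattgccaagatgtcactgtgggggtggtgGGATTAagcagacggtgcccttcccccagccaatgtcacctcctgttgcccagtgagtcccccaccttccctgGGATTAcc
Nr2e3: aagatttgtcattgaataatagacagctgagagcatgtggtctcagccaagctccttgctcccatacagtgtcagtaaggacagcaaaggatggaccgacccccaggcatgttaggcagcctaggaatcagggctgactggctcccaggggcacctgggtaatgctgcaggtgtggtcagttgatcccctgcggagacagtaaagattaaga

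The Crx window held 2 matches, which begin 94 and 21 bases before the RefSeq start, and the Nr2e3 window held none. All 9 genes were found in the RefSeq promoter table, with 14 windows of 250 bases among them. A match to TAATCC on either strand was present in 3 of these windows, 1 each for Crx, Otx2 and Thrb. The Otx2 match lay in a window wholly inside a GENCODE exon of Otx2. The Thrb match, 46 bases before the RefSeq start, lay among the 68 bases of its window that GENCODE places in an exon. Only the Crx matches lay outside annotated exons. Among all 32851 such windows, also taken with their exon bases, 6.25% held one. These are matches to letters only, and no binding was measured here.

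Compared per length of transcript, the photoreceptor regulators Crx and Nr2e3 stood at the top of the retina fraction and Pax6 and Prdm1 at the bottom. Crx reached 1189 ± 180 TPM, the length-scaled counterpart of CPM, in knockout retina and 1511 ± 142 TPM in control retina (SD, n = 5 and 4). Nr2e3 reached 994 ± 136 TPM in knockout retina and 1404 ± 113 TPM in control retina. Crx was above Nr2e3 in 5 of 5 knockout and in 3 of 4 control retina libraries, so that in control retina these neighbours did not separate beyond their spread. With the longest transcript of each gene in place of the union of its exons, Nr2e3 took the first rank in control retina and Crx the next. In knockout retina Crx kept the first rank by that length but was above Nr2e3 in only 2 of 5 libraries. The order of these 2 genes thus depended on the length used.

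Neurod1, Mef2d and Nrl formed the middle of the order. Neurod1 had 495 ± 47.0 TPM in knockout retina and 555 ± 60.4 TPM in control retina. Nrl, the rod determinant, had 348 ± 30.7 TPM in knockout retina and 484 ± 66.6 TPM in control retina. Mef2d, a factor of many tissues, had 419 ± 43.5 TPM in knockout retina and 366 ± 59.1 TPM in control retina. The rank of Nrl and Mef2d differed between the genotypes: Mef2d was above Nrl in 4 of 5 knockout libraries, and Nrl was above Mef2d in 4 of 4 control libraries. Neurod1 was above Nrl in only 3 of 4 control libraries.

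Otx2 followed with 165 ± 28.0 TPM in knockout retina and 182 ± 34.1 TPM in control retina, and Thrb with 43.0 ± 5.85 TPM in knockout retina and 34.4 ± 4.93 TPM in control retina. Pax6 had 15.1 ± 4.03 TPM in knockout retina and 10.8 ± 6.945 TPM in control retina, and Prdm1 had 10.5 ± 5.20 TPM in knockout retina and 5.28 ± 3.82 TPM in control retina. Pax6 was above Prdm1 in 3 of 5 knockout and 3 of 4 control retina libraries, so the last ranks did not separate by this length. With the longest transcript of each gene, Pax6 was above Prdm1 in 5 of 5 knockout and 4 of 4 control retina libraries. In the microglia fraction Mef2d led, with 63.4 ± 13.1 TPM in knockout and 75.1 ± 18.2 TPM in control microglia, ahead of Crx with 57.3 ± 30.6 TPM in knockout and 70.8 ± 26.7 TPM in control microglia. Their ranges overlapped in both genotypes.

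**Figure D1:**
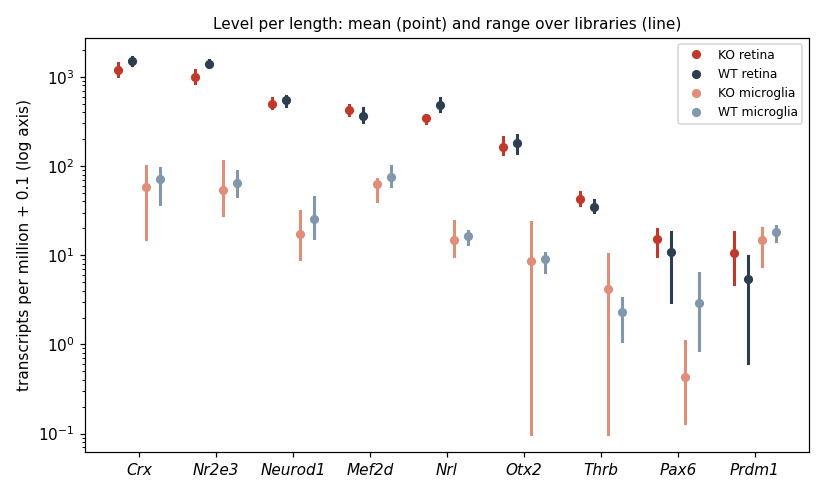
Level per length of the 9 genes in TPM plus 0.1 on a log axis, with the mean of each group as a point and the range over its libraries as a line (knockout n = 5, control n = 4 in each fraction). Crx and Nr2e3 lead the retina fraction, and Prdm1 alone lies higher in microglia than in retina.

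The first comparison asked how these genes differ between knockout and control retina, cells that by the sort exclude the microglia in which Bmal1 was targeted. The rod regulators Crx, Nrl and Nr2e3 were lower in each of the 5 knockout retina libraries than in any of the 4 control libraries. Their levels were 0.645 to 0.722 of control, and 2.69% of all genes tested lay below control in this way. None of the 9 genes passed an adjusted p under 0.05 in the edgeR quasi-likelihood test, although Nr2e3 (0.0550), Nrl (0.0710) and Crx (0.0932) were near it. The same 3 genes passed in DESeq2, which called 7.77% of all genes, and in the authors' deposited table, where 5.58% of genes passed. The other genes gave smaller or less certain differences, and Thrb, Pax6, Prdm1 and Mef2d had estimates above 0.

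Crx had 1045, 818, 843, 845 and 1120.0 CPM in the knockout retina libraries, against 1302, 1345, 1173 and 1216 CPM in the control libraries. The groups did not overlap, with knockout replicates 1 and 5 closest to the controls. The means were 934 ± 139 CPM in knockout retina and 1259 ± 78.7 CPM in control retina (SD, n = 5 and 4). The log2 change was -0.47 (SE 0.12), a fold of 0.722 with a 95% interval of 0.600 to 0.869 and an adjusted p of 0.0932 (edgeR quasi-likelihood test, Benjamini-Hochberg).

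Nrl (ENSMUSG00000040632, chr14:55518978-55524981, minus strand), without which rods are not made, had 527, 519, 426, 463 and 528 CPM in the knockout retina libraries, against 576, 945, 744 and 673 CPM in the control libraries. Control replicate 1 lay just above the knockout libraries and control replicate 2 far above them. The estimate was a log2 change of -0.61 (SE 0.14), a fold of 0.654 with a 95% interval of 0.524 to 0.815 (edgeR, adjusted p = 0.0710).

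Nr2e3, the nuclear receptor that represses cone genes in rods, had 1012, 774, 709, 799 and 873 CPM in the knockout retina libraries, against 1079.7, 1413, 1436 and 1103 CPM in the control libraries. The control libraries fell into a pair near the highest knockout library and a pair well above it. This gave a log2 change of -0.63 (SE 0.13), a fold of 0.645 with a 95% interval of 0.524 to 0.795 (edgeR, adjusted p = 0.0550).

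Across all genes tested in retina, edgeR called 255 of 15332, which is 1.66%, and 2180 had an unadjusted p under 0.05. Of the 9 genes, edgeR called 0, and 4 had an unadjusted p under 0.05, all with lower levels in knockout retina: Crx, Nrl, Nr2e3 and Neurod1. DESeq2 called Crx (adjusted p = 0.00475), Nrl (0.00184) and Nr2e3 (0.000563), where it called 7.77% of all genes. In limma voom Crx (0.0490) and Nr2e3 (0.0364) passed and Nrl did not (0.0652). The share of all genes that limma voom called is not reported here, so its calls cannot be set against that share. The authors' deposited table lists Crx at a log2 change of -0.47 (adjusted p = 0.00763), Nrl at -0.62 (0.00190) and Nr2e3 at -0.64 (0.000311), and 5.58% of its genes are past 0.05. A separation of every knockout library below every control library, as seen for Crx, Nrl and Nr2e3, occurred in 2.69% of all genes tested. Without control replicate 2, the log2 changes were -0.43 for Crx, -0.46 for Nrl and -0.57 for Nr2e3 (edgeR, adjusted p = 0.175, 0.121 and 0.124). The edgeR count became 1 without knockout retina replicate 1 (Nr2e3), knockout retina replicate 5 (Crx) or control retina replicate 1 (Nrl).

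**Figure D2:**
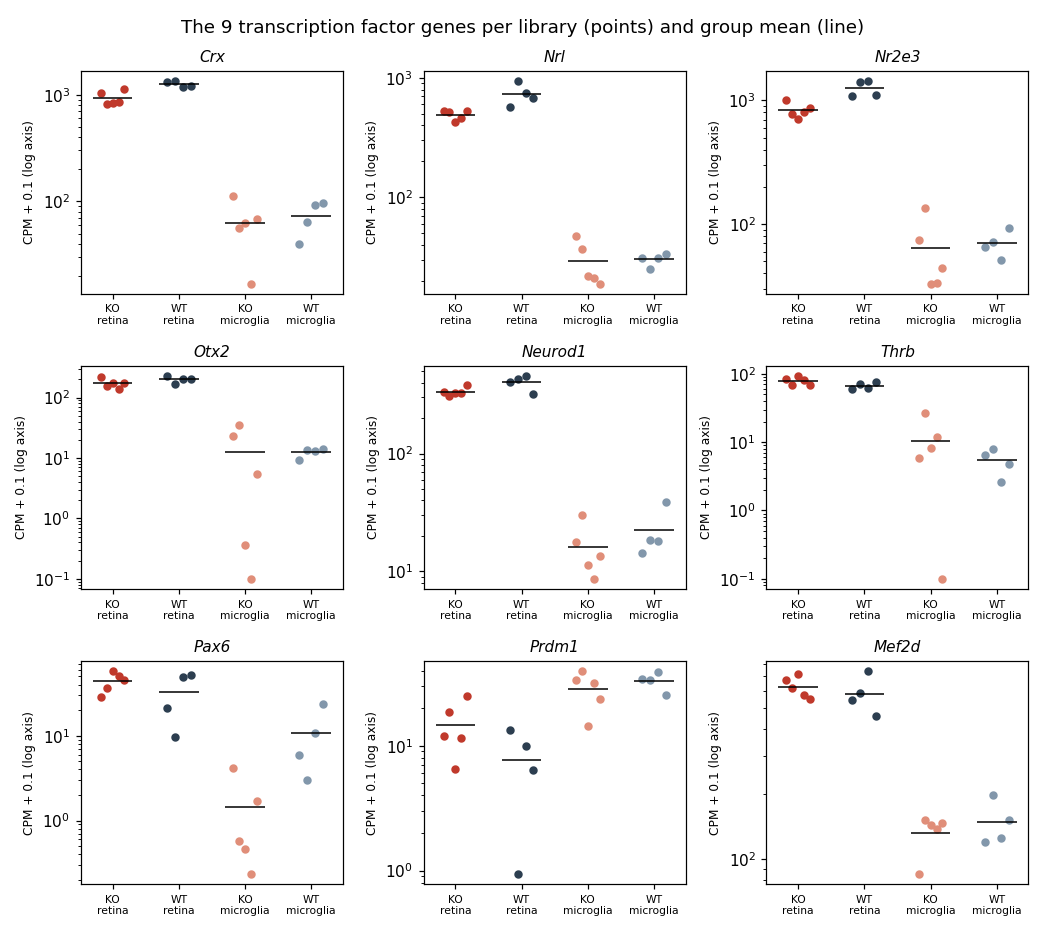
CPM plus 0.1 on a log axis for each of the 9 genes, with 1 point per library and a line at the group mean. In the Crx, Nrl and Nr2e3 panels the 5 knockout retina libraries all lie below the 4 control retina libraries, and the Otx2, Thrb and Pax6 panels show the widest spread among knockout microglia.

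For Otx2 and Neurod1, which act in the photoreceptor lineage as a whole, the estimates were smaller. Otx2 (ENSMUSG00000021848, chr14:48657677-48673819, minus strand) had 222, 157, 174, 139 and 172 CPM in the knockout retina libraries, against 228, 169.98, 203 and 204 CPM in the control libraries. The ranges overlapped, and only control replicate 1 lay above all knockout libraries. The log2 change was -0.26 (SE 0.15, edgeR adjusted p = 0.532). Exons of Otx2 overlap those of Otx2os1 on the other strand, and whether counting used strand is not given in the sources used here. Otx2os1 itself took 5429 reads over the knockout retina libraries and 5884 over the control ones. Exons of Nr2e3 overlap those of Gm15507, which took 100 reads over the knockout and 162 over the control retina libraries, and exons of Mef2d overlap those of 1700113A16Rik, which took 107 reads over the knockout and 0 over the control retina libraries.

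Neurod1 (ENSMUSG00000034701, chr2:79452521-79456751, minus strand), a basic helix-loop-helix factor, had 334, 308, 327, 327 and 384 CPM in the knockout retina libraries, against 402, 428, 454 and 323 CPM in the control libraries. Only control replicate 4 fell within the knockout range. Its log2 change was -0.30 (SE 0.12), with an unadjusted p of 0.0298 and an adjusted p of 0.271 (edgeR). Its exons overlap those of Cerkl on the same strand, so some reads could belong to either gene.

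For Thrb, Pax6, Prdm1 and Mef2d the estimates were above 0, and Pax6 and Prdm1 had wide intervals. Thrb (ENSMUSG00000021779, chr14:17660261-18038090, plus strand) had 84.9, 68.5, 92.7, 80.8 and 68.8 CPM in the knockout retina libraries, against 60.1, 70.8, 61.4 and 76.5 CPM in the control libraries. The ranges overlapped, and the log2 change was 0.19 (SE 0.14, edgeR adjusted p = 0.624). Counts per gene do not separate the beta2 receptor form, which is the one of cones, from the more widely expressed beta1 form.

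Pax6 (ENSMUSG00000027168, chr2:105668900-105697364, plus strand) had 28.8, 36.8, 57.4, 50.8 and 45.0 CPM in the knockout retina libraries, against 21.1, 9.69, 48.8 and 52.4 CPM in the control libraries. Control replicates 1 and 2 were low and replicates 3 and 4 were at the upper end of the knockout values. The log2 change of Pax6 was 0.36 (SE 0.45, edgeR adjusted p = 0.830).

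Prdm1 (ENSMUSG00000038151, chr10:44437177-44528501, minus strand), a zinc finger repressor, had 11.9, 18.5, 6.37, 11.5 and 24.96 CPM in the knockout retina libraries, against 13.2, 0.840, 9.92 and 6.28 CPM in the control libraries. Its range was the widest relative to its level, and control replicate 2 was the lowest library. For Prdm1 the log2 change was 0.91 (SE 0.70) and the edgeR adjusted p 0.673.

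Mef2d (ENSMUSG00000001419, chr3:88142372-88172086, plus strand) had 671, 614, 714, 570.1 and 550.4 CPM in the knockout retina libraries, against 541, 588, 738 and 460.0 CPM in the control libraries. The control values spanned the knockout values. Mef2d had a log2 change of 0.06, with a 95% interval of -0.25 to 0.37 (edgeR adjusted p = 0.926), so a difference of the size estimated for Nr2e3 lay outside the interval of Mef2d.

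Over the 9 genes, 5 estimates were below 0 and 4 above, with a median log2 change of -0.26, beside 0.0028 over all 15332 genes tested. Ratios between the genes were also taken within each library. Nr2e3 had 1.69 ± 0.155 reads per Nrl read in knockout retina and 1.74 ± 0.203 in control retina. Nrl had 0.533 ± 0.0634 reads per Crx read in knockout retina and 0.583 ± 0.112 in control retina. Otx2 had 0.186 ± 0.0256 reads per Crx read in knockout retina and 0.161 ± 0.0230 in control retina (SD, n = 5 and 4). The ranges of all these ratios overlapped between the genotypes. Such ratios show how the genes stand to one another and do not say that either was unchanged.

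The levels of Crx, Nrl and Nr2e3 moved with those of rod genes in general. All 31 genes of a rod list had a log2 change below 0 in knockout against control retina, with a median of -0.49 and 8 called by edgeR, among them Cnga1 (the rod cyclic nucleotide channel, -0.83), Rcvrn (recoverin, -0.59) and Pdc (phosducin, -0.87). Without control replicate 2, all 31 stayed below 0 (median -0.39) and 0 were called, and the number called was also 0 without any 1 of knockout replicates 1 to 4. Summed over the list, rod genes made up 158485 to 196086 CPM in knockout retina and 200179 to 292135 CPM in control retina. No rod marker on the list was at 0 reads in either retina group. In a fit that took the mean level of these rod genes as a covariate, the log2 change was -0.13 (SE 0.18) for Crx, -0.10 (SE 0.19) for Nrl and -0.20 (SE 0.21) for Nr2e3, and edgeR called 0 of 15332 genes in that fit. Rod level and genotype go together in these libraries and cannot be told apart. In bulk samples fewer cells of a type and less RNA per cell cannot be told apart either.

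**Figure D3:**
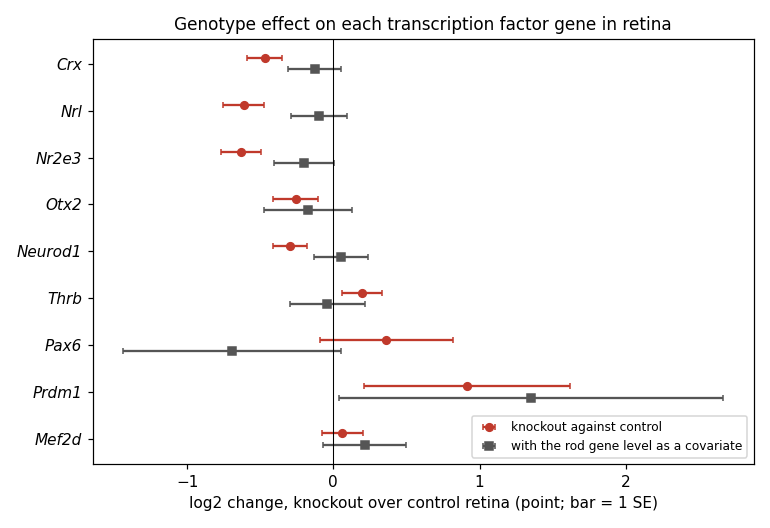
Log2 change of each gene, knockout over control retina, without a covariate (circles) and with the covariate for the level of rod genes (squares); bars are 1 SE. The estimates for Crx, Nrl and Nr2e3 lie at -0.47, -0.61 and -0.63 without the covariate and between -0.20 and -0.10 with it.

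Some genes of cones and bipolar cells rose in knockout retina, where Crx, Nrl and Nr2e3 stood below control. Of 16 cone genes, edgeR called 4 higher in knockout retina and 0 lower, with a median log2 change of 1.69, among them Gnb3 (1.72), Opn1sw (short-wavelength opsin, 1.75) and Gnat2 (cone transducin, 1.59). Of 20 bipolar genes, 9 were called higher and 0 lower, with a median of 1.78. Without control replicate 2, 3 cone and 8 bipolar genes passed, and when each retina library was left out in turn 1 to 4 cone and 1 to 8 bipolar genes did. Cone genes summed to 3567 to 7644 CPM in knockout retina and 1706 to 2670 CPM in control retina. Bipolar genes summed to 2464 to 4454 CPM in knockout retina and 438 to 1263 CPM in control retina, and none of the cone or bipolar markers was at 0 in either group. Other cell type lists also had most estimates above 0. All 14 Mueller glia genes tested did (median log2 change 0.65, 0 called), as did 9 of 11 amacrine genes (median 0.75), 4 of 4 horizontal cell genes (median 0.68, 0 called) and 8 of 9 endothelial and mural genes (median 1.23). Slc6a9, a glycine transporter of amacrine cells, was the 1 amacrine gene called (1.16, edgeR adjusted p = 0.0380). Tie1, an endothelial receptor, was the 1 called in its list (edgeR adjusted p = 0.0155), with a mean of 10.1 CPM in knockout retina and 0 reads in control retina. Of 11 ganglion cell genes, 5 had estimates above 0 and 6 below, with 0 called. Thrb, the cone factor among the 9 genes, did not pass in this comparison, with the log2 change of 0.19 given above, and Otx2 and Crx, which bipolar cells also express, had estimates below 0. The part of these cell type differences in the levels of the 9 genes was not tested.

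Other transcription factors of retinal fate that passed included factors of bipolar cells. Of 67 listed, 50 had enough reads to test, 5 rose and 1 fell in knockout retina (edgeR), and the median log2 change was 0.72, beside 0.0028 over all genes. Of these 50, 35 had estimates above 0. Vsx1, a factor of cone bipolar cells, averaged 40.3 CPM in knockout retina and 11.8 CPM in control retina (log2 change 1.72, edgeR adjusted p = 0.0373). Isl1, found in ON bipolar, amacrine and ganglion cells, averaged 107 CPM in knockout retina and 24.4 CPM in control retina (2.09, adjusted p = 0.0304). Both genes are also on the bipolar list above. Without any 1 of knockout replicates 1 to 4, none of the factors tested passed (edgeR), and without control replicate 2 the number that passed was 3, with Isl1 and Sall3 among them.

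Other calls were of different kinds. Esrrb, an orphan receptor of rods that is also on the rod list, averaged 89.6 CPM in knockout retina and 142 CPM in control retina (log2 change -0.71, adjusted p = 0.0472). Nr1d1, a repressor in the circadian clock that BMAL1 activates and that works with Nr2e3 in photoreceptors, averaged 459 CPM in knockout retina and 228 CPM in control retina (0.96, adjusted p = 0.0483). Sall3, a zinc finger factor of cones and horizontal cells, had 682 to 1262 reads in each knockout retina library and 0 to 20 reads in each control retina library (6.75, adjusted p = 0.0373). Sall3 averaged more in microglia than in either retina group, with 168 CPM in knockout microglia and 215 CPM in control microglia, while the microglia markers P2ry12, Itgam and Fcrls had 0 reads in knockout retina.

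Across the 9 retina libraries, the genes whose profiles lay closest to Nrl and Nr2e3 included the phototransduction genes Sag and Pde6g. Likeness was the root mean square difference of centred log2 CPM over 10061 genes with a mean of at least 5 CPM. Nearest to Nrl were Prcd (0.0807), Sag (rod arrestin, 0.0907) and Ankrd33 (0.0931), where the profile of Nrl itself varied by 0.339 about its mean. Nearest to Nr2e3 were Ppa1 (0.0744), Pde6g (the rod phosphodiesterase inhibitor, 0.0944) and Sag (0.1004), where Nr2e3 itself varied by 0.346. These libraries differ in depth, genotype and makeup together, so the likeness is a description.

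Crx was closest to Hnrnpu (0.0915), Rtn2 (0.0927) and Rab28 (0.0957), with a variation of 0.265 of its own. Among the 9 genes the smallest distance was that of Nrl and Nr2e3, 0.133, followed by Crx and Neurod1 at 0.179 and Crx and Nr2e3 at 0.184. Crx and Nrl lay 0.208 apart. Neurod1 was closest to Raly (0.0788), Snf8 (0.0800) and Aup1 (0.0865), and Otx2 to Sap18 (0.106), Frmpd2 (0.113) and Ypel5 (0.125). Mef2d had Add1 (0.0758), Grina (0.0933) and Pcif1 (0.101), and Thrb had Cct7 (0.102), Cystm1 (0.106) and Metap2 (0.107). For Pax6 and Prdm1 the distances were larger, and so was their own variation, 0.767 for Pax6 and 1.16 for Prdm1. Nearest to Pax6 were Rnft2 (0.202), Nt5c3b (0.215) and Pus1 (0.263), and to Prdm1 Dcaf12l1 (0.430), Shd (0.457) and Zfp655 (0.482). A distance of this kind grows with the variation of the gene, so it does not rank the genes by closeness.

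**Figure D4:**
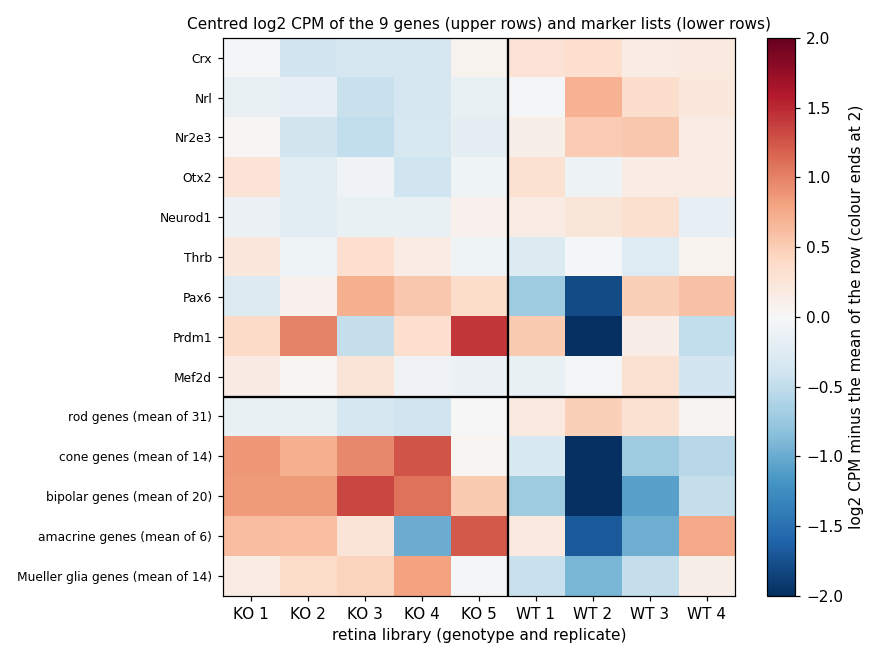
Log2 CPM of the 9 genes (upper rows) and of the mean of each marker list (lower rows) in each retina library, minus the mean of the row, with knockout libraries left of control libraries and colours that end at 2 on either side. Nrl and Nr2e3 are lower in each of the 5 knockout libraries than in any control library, and Prdm1 has its lowest value in control replicate 2.

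The second comparison asked the same of the sorted microglia, the cells in which Bmal1 was targeted. None of the 9 genes differed past the threshold between knockout and control microglia, and their levels there were a small share of those in retina for all but Prdm1, Mef2d and, in controls, Pax6. By edgeR 0 of the 9 were called, beside 0.115% of all genes (17 of 14835). At an unadjusted p under 0.05 there were 855 of all genes and 1 of the 9, Pax6. DESeq2, limma voom and the authors' deposited table also called 0 of the 9. The median log2 change of the 9 genes was -0.16, beside -0.0058 over all genes tested.

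Pax6 had 4.07, 0.470, 0.367, 0.135 and 1.62 CPM in the knockout microglia libraries, against 5.78, 2.94, 10.6 and 23.4 CPM in the control libraries. Only knockout replicate 1 reached into the control range, and knockout replicate 4 rested on 4 reads. Pax6 had a log2 change of -3.01 (SE 1.05), with an unadjusted p of 0.0175 and an adjusted p of 0.662 (edgeR).

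Otx2 had 22.7, 34.5, 0.262, 0.00 and 5.43 CPM in the knockout microglia libraries, against 9.00, 13.3, 13.0 and 14.0 CPM in the control libraries. The knockout libraries lay on both sides of the controls, and replicate 4 had 0 reads, which allows up to 0.102 CPM (3 counts, counting error only). The log2 change of 0.02 had an SE of 1.40, so these libraries set no useful bound on it.

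Thrb had 5.80, 26.5, 8.12, 11.7 and 0.00 CPM in the knockout microglia libraries, against 6.29, 7.80, 2.47 and 4.71 CPM in the control libraries. Its range in the knockout contained that of the control, and the 0 in replicate 5 allows up to 0.0795 CPM. The log2 change was 0.97 (SE 1.26, edgeR adjusted p = 0.999).

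Crx, Nrl and Nr2e3 had 16.9 to 112, 18.9 to 47.7 and 33.0 to 135 CPM across the knockout microglia libraries, against 39.5 to 96.4, 25.1 to 33.8 and 51.0 to 93.2 CPM across the control libraries. The control ranges lay within the knockout ranges. Their log2 changes were -0.22 (SE 0.46), -0.06 (SE 0.31) and -0.14 (SE 0.43), each with an edgeR adjusted p of 0.999. The 95% intervals, -1.25 to 0.81 for Crx, -0.75 to 0.63 for Nrl and -1.10 to 0.81 for Nr2e3, contain the estimates made in retina, so a difference of that size was not detectable here.

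Prdm1, which immune cells use as well, had 33.6, 39.4, 14.2, 31.4 and 23.7 CPM in the knockout microglia libraries, against 34.1, 33.7, 39.0 and 25.6 CPM in the control libraries. The ranges overlapped, and the log2 change was -0.22 (SE 0.30). Mef2d had 84.9, 150.4, 142, 137 and 146 CPM in the knockout microglia libraries, against 119.7, 196, 124 and 151 CPM in the control libraries. Knockout replicate 1 was the lowest, and the log2 change was -0.16 (SE 0.20). Neurod1 had 8.57 to 29.8 CPM in knockout microglia and 14.2 to 38.7 CPM in control microglia, with a log2 change of -0.47 (SE 0.44). All 3 had an edgeR adjusted p of 0.999.

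Whether the effect of genotype differed between the fractions was tested as an interaction over all 18 libraries. By edgeR 0 of the 9 genes were called, beside 0.469% of all genes (85 of 18128), where 2271 of all genes and 1 of the 9 had an unadjusted p under 0.05. That gene was Pax6, whose log2 change between genotypes was 3.40 higher in retina than in microglia (SE 1.15, edgeR adjusted p = 0.213). DESeq2, which called many more of all genes than edgeR in this test, called Pax6 (adjusted p = 0.0362). With limma voom none of the 9 was called. For Nrl the interaction was -0.52 (edgeR adjusted p = 0.594), the smallest adjusted p among the other 8 genes. The lower levels of Crx, Nrl and Nr2e3 in knockout retina are therefore not shown to differ from what happened in the microglia fraction.

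The third comparison, between the control fractions, asked where each gene is expressed. Crx, Nrl, Nr2e3, Otx2, Neurod1, Thrb and Mef2d were higher in control retina than in control microglia, the first 6 by 13.1-fold to 24.9-fold and Mef2d by 4.07-fold. Prdm1 was the exception and was lower in retina. edgeR called 7 of the 9 higher, where it called 17.4% of all genes higher, and 1 of the 9 lower, where it called 22.8% lower. These fits use the same control libraries as the genotype comparisons.

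For Nrl the log2 change was 4.64 (SE 0.21, adjusted p = 3.2e-06) and the fold 24.9, with a 95% interval of 17.8 to 35.0. Neurod1 had 4.21 (SE 0.36), Nr2e3 4.20 (SE 0.24), Crx 4.14 (SE 0.31), Otx2 4.07 (SE 0.20) and Thrb 3.71 (SE 0.37) on the same log2 scale. These values sit around that of the rod genes, of which 31 of 31 were called higher in retina with a median log2 change of 4.35. Mef2d, a factor present in both fractions, had 2.02 (SE 0.22, adjusted p = 0.000220).

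Prdm1 averaged 7.56 ± 5.30 CPM in control retina and 33.1 ± 5.56 CPM in control microglia (SD, n = 4 each). The libraries did not overlap, and 28.8% of all genes had every control retina library below every control microglia library. Its log2 change was -2.09 (SE 0.70, edgeR adjusted p = 0.0445), a fold of 0.236. The call was lost without control retina replicate 3 or 4 or any 1 of the 4 control microglia libraries (adjusted p = 0.0641 to 0.0954), and the direction held in each. Pax6 averaged 33.0 ± 20.9 CPM in control retina and 10.7 ± 9.04 CPM in control microglia, with a log2 change of 1.66 (SE 0.76) that did not pass (adjusted p = 0.119). Without control microglia replicate 4, the highest of its group, Pax6 passed (log2 change 2.38, adjusted p = 0.0453).

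**Figure D5:**
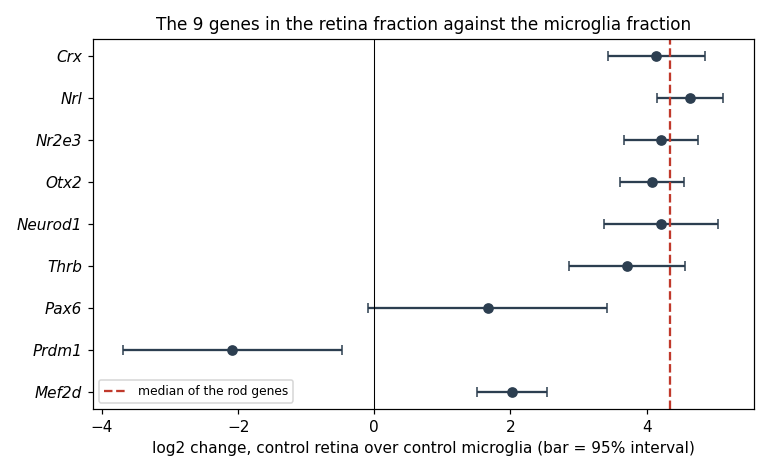
Log2 change of each gene, control retina over control microglia, with 95% intervals; the dashed line is the median of the rod genes, 4.35. Nrl, Nr2e3, Crx, Otx2, Neurod1 and Thrb lie near the dashed line, Mef2d and Pax6 lie between it and 0, and Prdm1 lies below 0.

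As ratios of group means, Crx, Nrl, Nr2e3, Otx2 and Neurod1 in the microglia fraction stood at 4.13% to 7.67% of their retina level. Single libraries varied more, so these shares describe the means only. Across the knockout microglia libraries Otx2 ranged from 0 to 34.5 CPM and Crx from 16.9 to 112 CPM. In control microglia the ranges were narrower, 9.00 to 14.0 CPM for Otx2 and 39.5 to 96.4 CPM for Crx. Relative to retina of the same genotype, Crx stood at 6.75% in knockout and 5.82% in control microglia, and Nrl at 5.93% in knockout and 4.13% in control microglia. Nr2e3 stood at 7.67% in knockout and 5.59% in control microglia, and Otx2 at 7.27% in knockout and 6.12% in control microglia. Neurod1 stood at 4.81% in knockout and 5.55% in control microglia. The summed rod genes stood at 6.82% in knockout and 5.11% in control microglia. All 31 rod genes had reads in both microglia groups. Thrb stood at 13.2% in knockout and 7.91% in control microglia, and Mef2d at 21.2% in knockout and 25.4% in control microglia. Prdm1 stood at 195% in knockout and 438% in control microglia, and Pax6 at 3.05% in knockout and 32.3% in control microglia. Where the photoreceptor reads in the sorted microglia came from was not tested.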

How the data were processed

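RNA was extracted with an RNeasy Plus Micro kit, amplified with a SMARTer Ultra Low kit and sequenced on a NovaSeq X Plus, per the labels' protocols, so reads are not independent molecules. Raw counts of each gene in 18 libraries were deposited by the authors. They also deposited, per the file headers, a table for each genotype comparison with log2 fold changes, a likelihood ratio score and p-values. DRAGEN, STAR 2.7.9a, Subread, featureCounts, edgeR, limma and the build GRCm38 appear in the submitters' processing notes, with no role given. Of 55774 lines of counts, 287 were copies of a gene already listed, which left 55487 genes. All lines carried a gene name, and the number of sample columns left out was 0.

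Counts were tested with edgeR 4.0.16 in R 4.3.3 (filterByExpr by group, TMM, quasi-likelihood F test, Benjamini-Hochberg over all genes tested, called at an adjusted p under 0.05). A genotype comparison took 9 libraries, that of the control fractions 8, and the interaction all 18. CPM carry TMM factors from all 18 libraries, and TPM used the union of GENCODE M21 exons, known for 55227 genes. Profiles used a pseudocount of 0.5 CPM. Alternatives were DESeq2 1.42.0, its size factors, limma 3.58.1 voom, no filter, at least 1 CPM in at least 4 libraries, a block for the replicate number, a fit over all 18 libraries, a covariate for rod genes and leaving out each library.

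The 9 genes and the gene lists were chosen with earlier results of these data known. Named beside the 9 were Arntl, each gene of the other fate factors past the threshold in retina, in that list and among the close relatives the 4 with the smallest p, up to 3 genes of a marker list with the smallest p, and the 3 genes with the closest profile. Overlapping genes and the microglia markers with 0 reads were named after their values were seen. Not every gene this rule picks is reported here.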

Additional observations from a re-analysis of the deposited data

Results flagged for a closer look

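Within 36 groups of 4 or 5 libraries (9 genes in 4 groups), 2 held a library that stood apart from the others by Dixon's criterion, where chance alone gives about 1 in 20. Neurod1 had 38.7 CPM in control microglia replicate 4, against 14.2 to 18.4 CPM in the other control microglia libraries. Mef2d had 84.9 CPM in knockout microglia replicate 1, against 137 to 150.4 CPM in the other knockout microglia libraries. Neither gene passed the threshold between knockout and control microglia.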

How the results depend on the processing

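Of 639 log2 changes of single genes under the alternatives, 591 kept their direction and their side of the threshold, 12 gained a call, 8 lost one and 28 changed sign. Of 71 counts of called genes among the 9, 64 stayed within 1.5 times the count reported.

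In retina the count of 0 became 1 with a filter of 1 CPM in 4 libraries (Nr2e3), 3 with DESeq2 and 2 with limma voom, and ranged from 0 to 1 when each library was left out. The interaction count became 1 with DESeq2. How many of all genes limma voom called in retina is not reported here. Over all genes, DESeq2 called 1184 in retina, against 255 with edgeR, 120 with no filter, 0 with the rod covariate and 96 to 342 when each library was left out; in microglia it called 237, against 17 with edgeR, and in the interaction 1090, against 85.

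With the rod covariate the retina estimates changed sign for Neurod1 (0.0504), Thrb (-0.0404) and Pax6 (-0.69). Otx2 in microglia was at -0.0037 with the filter of 1 CPM and -2.51 with limma voom, and Thrb there was at -0.85 with limma voom. In the interaction, limma voom gave 2.42 for Otx2 and 1.03 for Thrb. The causes of these changes were not tested. Leaving out each library gave -0.0183 to 0.20 for Mef2d in retina, and in microglia -0.79 to 0.34 for Otx2, -0.31 to 0.0617 for Nrl, -0.61 to 0.0299 for Nr2e3, -0.53 to 0.0200 for Crx and -0.25 to 0.0048 for Mef2d. For the interaction the ranges were -0.46 to 0.10 for Crx, -0.57 to 0.57 for Otx2, -0.62 to 0.0181 for Nr2e3 and -0.19 to 0.55 for Neurod1.

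Same-numbered libraries of different groups deviated together with correlations of -0.046 to 0.058, and the labels used here do not say that a number marks one mouse, so numbers were not taken as pairs. Xist had 42.0 CPM in control microglia replicate 1 and 0.0766 CPM in control retina replicate 1. With the number as a block, edgeR called 0 genes in retina, 2 in microglia and 9 in the interaction. Of the 9 genes it called 0 in retina, and 8 between the control fractions, with Pax6 (1.78, adjusted p = 0.0176) gained and Prdm1 (-2.48, adjusted p = 0.0737) lost. Otx2 was at -2.48 in microglia and 1.59 in the interaction. Across the fractions of one genotype, retina libraries correlated best with their own number in microglia in 1 of 4 control and 2 of 5 knockout pairs. Between knockout and control this held in 2 of 4 pairs in retina and 1 of 4 in microglia.

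In microglia the spread between knockout libraries was wide for Otx2 (0 to 1247 reads), and the SE of its log2 change was 1.40.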

Other observations

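Close relatives of the 9 genes, listed at 20 with 14 tested in retina, gave 0 calls between knockout and control retina by edgeR, with 7 estimates above 0 and 7 below and a median log2 change of 0.04. Neurod4, a helix-loop-helix factor of bipolar and amacrine precursors, averaged 193 CPM in knockout retina and 78.8 CPM in control retina (1.25, adjusted p = 0.172), with 146 to 228 CPM across the knockout and 24.8 to 136 CPM across the control retina libraries. Thra, the other thyroid hormone receptor gene, averaged 52.0 CPM in knockout retina and 31.1 CPM in control retina (0.70, adjusted p = 0.196). Neurod2 averaged 10.1 CPM in knockout retina and 1.52 CPM in control retina (2.68, adjusted p = 0.525).

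Mef2c, the relative of Mef2d that microglia express strongly, averaged 232 CPM in knockout retina and 280.3 CPM in control retina (-0.31, adjusted p = 0.361). Between the control fractions it was lower in retina by a log2 change of -0.94 (edgeR adjusted p = 0.00155), opposite in direction to Mef2d at 2.02. Mef2c averaged 486 CPM in knockout microglia and 552 CPM in control microglia.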
